A study of Arabidopsis thaliana with 12 samples.

Results

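Seedlings of the Arabidopsis thaliana mutant med8 were set against seedlings of the wild type Col-0, both grown on control medium, and every gene that passed a count filter was compared. The comparison took all 3 med8 and all 3 Col-0 libraries of that medium, 6 of the 12 libraries of the study. The labels name the mutant only as med8 and give no allele, and they give no agent for the control groups. All plants were 2 weeks old, were grown in long days on agar with Murashige and Skoog salts, sucrose and vitamins, and were harvested as seedlings. The other 6 libraries came from the same genotypes grown with 25 nM methyl viologen, a herbicide that takes electrons from the photosynthetic chain and hands them on to oxygen, and they enter here in the shared estimate of spread and in the comparison of genotype differences between the media.

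Mediator is the multi-subunit complex that carries signals from DNA-bound transcription factors to RNA polymerase II. Its subunits form head, middle and tail modules and a detachable kinase module, and MED8 belongs to the head. In Arabidopsis, MED8 is known from mutants that flower late and that respond differently to pathogens and to jasmonate.

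The libraries were stranded mRNA libraries read as single ends, and the deposited table held raw counts per locus. The 6 control libraries held between 30.47 and 32.35 M counts for med8 and between 31.52 and 33.07 M counts for Col-0. Of 21543 loci, 20741 passed the filter. In what follows CPM are counts per M counts of the TMM-scaled library, a value with ± after a gene name is the log2 fold change of med8 over Col-0 with its SE, and each adjusted p is from edgeR's quasi-likelihood test with Benjamini-Hochberg adjustment over all genes tested. A gene "rose" or "fell" where that p was under 0.05. The labels do not say whether replicates came from separate plates or sowings, so p-values here reflect only how far these libraries spread, which may be technical.

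One library in each group stood apart. Within med8, replicate 3 differed from replicates 1 and 2 with a chi-square per degree of freedom of 34.35 and 37, against 6.328 between the others. Within Col-0, replicate 1 differed from replicates 2 and 3 with 34.8 and 25.98, against 8.888 between the others. The 25 tested genes of salicylic acid signalling had a mean log2(CPM + 1) of 3.08, 3.42 and 2.58 in the med8 libraries and of 2.58, 4.27 and 3.59 in the Col-0 libraries. The 20 cell division genes ran the other way, with 3.89, 3.82 and 4.48 in med8 and 4.16, 3.78 and 3.82 in Col-0. All 5 green tissue markers were strong in every library (RBCS1A, RCA, CAB2 (an LHCB1 gene), LHCB3 and PSAF, each with at least 94161 counts). The 22 root markers were all detected in every library, and their summed level was lowest in med8 replicate 3, with 888 CPM against 1609 and 1483 CPM in the other med8 libraries and 1721 to 2100 CPM in Col-0. The seed storage and oleosin list had 2 genes in the table, with at most 5 counts in a library, and none was tested.

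**Figure D1:**
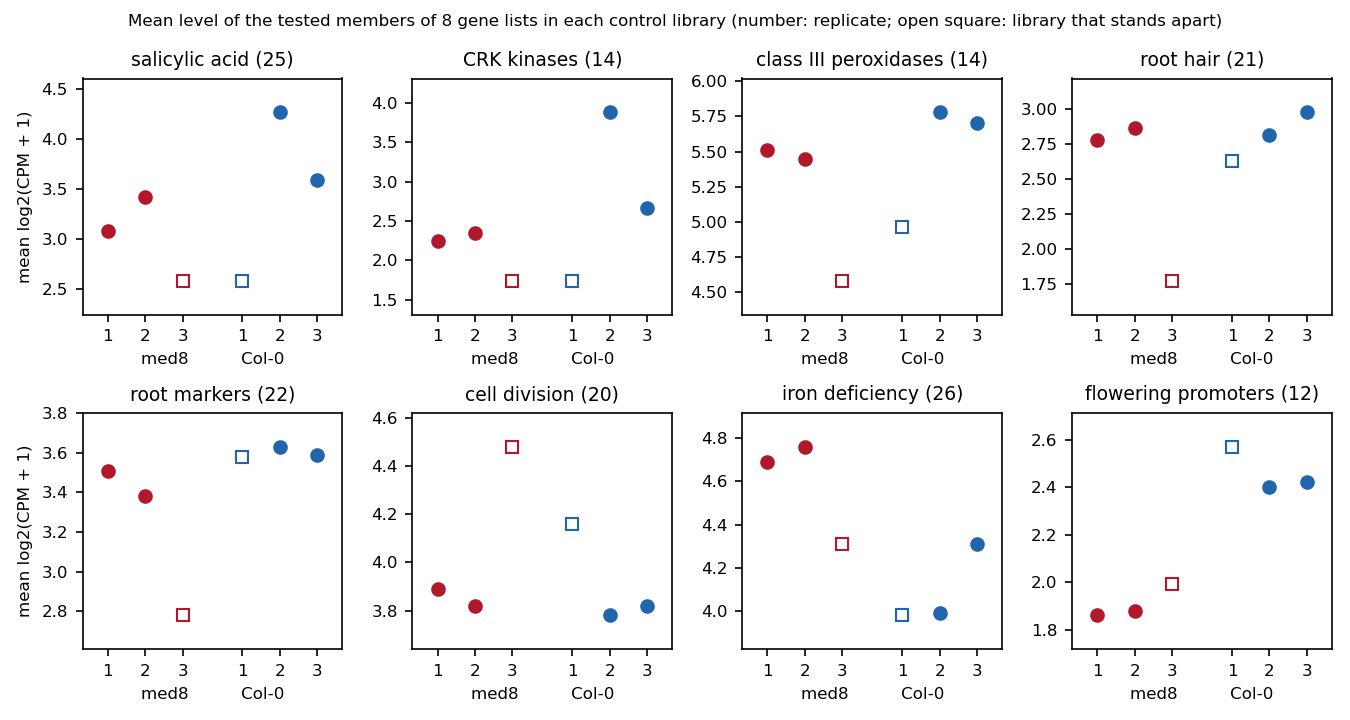
Mean log2(CPM + 1) of the tested members of 8 gene lists (y axis) in each control library (x axis, by replicate number; red med8, blue Col-0; open squares mark med8 replicate 3 and Col-0 replicate 1). The open squares sit lowest for salicylic acid genes, receptor-like kinases and class III peroxidases in both genotypes, while the flowering promoters separate the genotypes in every library.

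MED8 itself was checked first. MED8 (AT2G03070, TAIR10.1 chr2:905513-909272, plus strand) stood at 5.06, 5.23 and 6.41 CPM in the med8 libraries, against 20.5, 20 and 18.9 CPM in the Col-0 libraries, which was 28.1% of Col-0 (−1.83 ± 0.11, adjusted p = 5.51e-05). The med8 libraries were below every Col-0 library, and residual reads on the gene were present in each. Of the other 33 Mediator subunit genes tested, a Med10 gene (AT1G26665) fell (−0.46 ± 0.08, adjusted p = 0.00856) and MED14, the scaffold subunit, rose slightly (0.20 ± 0.05, adjusted p = 0.0366). MED14 lost its call without Col-0 replicate 1, 2 or 3 or med8 replicate 1 or 2 (adjusted p between 0.0611 and 0.112). The remaining 31, chosen for naming after their values were seen, included MED25 (0.02 ± 0.06), MED16 (−0.05 ± 0.08) and MED18 (0.21 ± 0.10), and none passed.

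Across the transcriptome, 1200 genes passed, 5.79% of those tested. Of these, 582 rose (2.81%) and 618 fell (2.98%), and the median absolute change among them was 0.58 on the log2 scale with a median SE of 0.11. At least a 2-fold change was reached by 95 that rose and 182 that fell. In 1188 of the 1200 the 3 med8 libraries did not overlap the 3 Col-0 libraries, which was so for 23.3% of all genes tested. The 1200 were chosen by a test on these same libraries, so this is no further evidence for the calls. The number of calls depended on single libraries: it was 446 without Col-0 replicate 2, 402 without Col-0 replicate 3, 631 without med8 replicate 2 and 1625 without Col-0 replicate 1, and 1848 with both libraries that stood apart left out. It was 143 when only the 6 control libraries were fitted and 1976 with DESeq2. Of the 109 called genes named here besides MED8, 79 lost the call when only the 6 control libraries were fitted. Losses given below for single genes are those of the fits without a library, unless another fit is named. Shares over all genes given below are those of the fit of all libraries, unless another fit is named. Numbers of list members in fits without a library stand beside totals of 402 to 1625 calls over all genes. A core of 324 genes, 143 that rose and 181 that fell, kept the call and the direction in each of the 6 fits without a library.

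**Figure D2:**
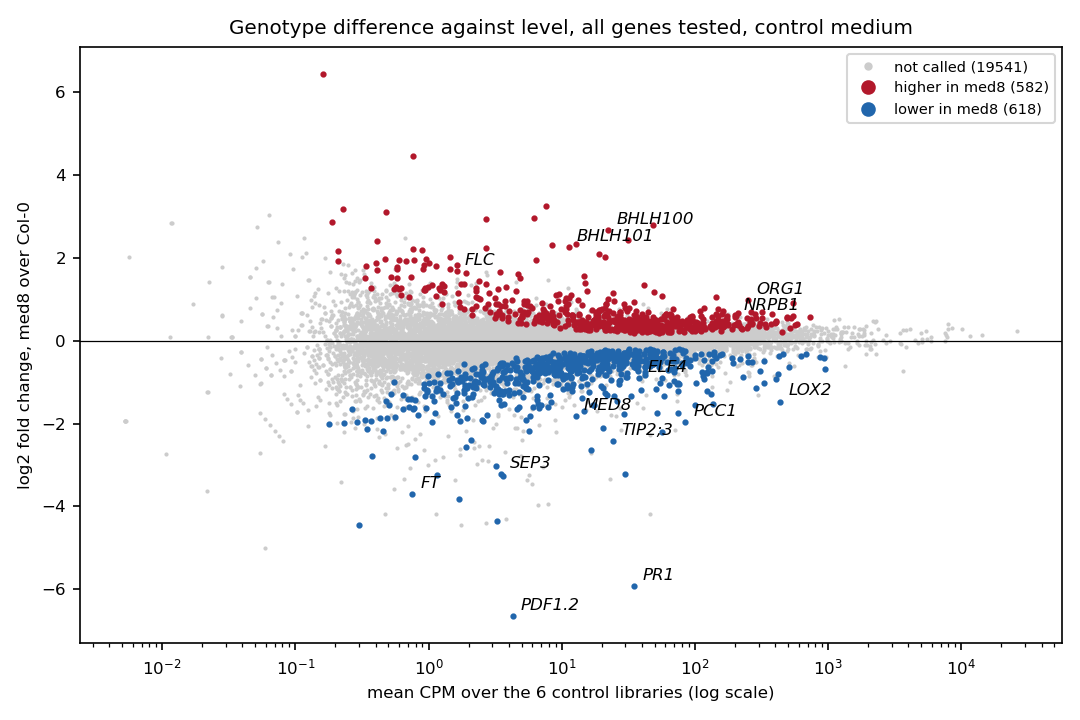
Log2 fold change of med8 over Col-0 on control medium (y axis) against the mean CPM of the 6 control libraries (x axis, log scale) for the 20741 genes tested. Red points rose (582), blue points fell (618) and grey points did not pass, and the largest falls, PDF1.2 and PR1, lie further from 0 than most of the rises.

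Part of the iron deficiency response rose in med8 on medium that was the same for both genotypes. Of the 26 tested genes in this list 12 rose and 0 fell, against 2.81% rising over all genes, and the list's median was 0.43 against 0.003 for all genes. In the fits without a library between 12 and 14 rose. With both libraries that stood apart left out 11 rose and 1 fell, where 4.45% of all genes rose and 4.40% fell. With only the 6 control libraries 6 rose, and BHLH38, BHLH39, PYE, BTS, OPT3 and NRAMP4 lost their calls (adjusted p between 0.0609 and 0.0939). The response is run by clade Ib bHLH factors, which pair with the root regulator FIT to switch on iron uptake and which are themselves made when iron is short.

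All 4 clade Ib genes rose. BHLH100 had 38.3, 30.8 and 46.9 CPM in the med8 libraries, against 5.08, 4.14 and 8.93 CPM in the Col-0 libraries (2.67 ± 0.29, adjusted p = 0.00119). BHLH101 had 19.8, 18.4 and 17.7 CPM in the med8 libraries, against 3.29, 3.59 and 4.83 CPM in the Col-0 libraries (2.25 ± 0.16, adjusted p = 0.000123), among the smallest p of all rises. In both genes every med8 library was at least 3-fold above the highest Col-0 library. BHLH38 had 32.1, 25 and 34.7 CPM in the med8 libraries, against 5.31, 4.3 and 12 CPM in the Col-0 libraries (2.08 ± 0.32, adjusted p = 0.00556). BHLH39 had 24.4, 17.9 and 23.1 CPM in the med8 libraries, against 6.32, 5.01 and 11 CPM in the Col-0 libraries (1.55 ± 0.25, adjusted p = 0.00683). For this neighbouring pair Col-0 replicate 3 was the highest control, and the groups did not overlap, but both calls were lost with the 2 libraries that stood apart left out (1.82, adjusted p = 0.0505, and 1.41, adjusted p = 0.0533). Reads may be shared between such similar neighbours.

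Since these genes moved together, their promoters are shown, 250 bases before the RefSeq start on TAIR10.1, with capitals for the G-box CACGTG, a motif that bHLH proteins bind, and for the W-box TTGACC or TTGACT, on either strand. They lie at chr3:21085246-21085495, minus strand for BHLH38, chr3:21087711-21087960, minus strand for BHLH39, chr2:17199455-17199704, minus strand for BHLH100 and chr5:1139634-1139883, minus strand for BHLH101.
BHLH38: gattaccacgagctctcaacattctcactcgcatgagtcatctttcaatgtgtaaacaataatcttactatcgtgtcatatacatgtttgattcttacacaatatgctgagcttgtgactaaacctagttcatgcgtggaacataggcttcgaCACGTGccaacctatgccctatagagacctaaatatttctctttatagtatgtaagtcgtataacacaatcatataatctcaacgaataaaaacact
BHLH39: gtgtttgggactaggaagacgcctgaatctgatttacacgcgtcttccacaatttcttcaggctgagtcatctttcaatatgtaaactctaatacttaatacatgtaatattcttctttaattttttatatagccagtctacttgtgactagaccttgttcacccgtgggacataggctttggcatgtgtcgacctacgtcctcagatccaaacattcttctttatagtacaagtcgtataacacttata
BHLH100: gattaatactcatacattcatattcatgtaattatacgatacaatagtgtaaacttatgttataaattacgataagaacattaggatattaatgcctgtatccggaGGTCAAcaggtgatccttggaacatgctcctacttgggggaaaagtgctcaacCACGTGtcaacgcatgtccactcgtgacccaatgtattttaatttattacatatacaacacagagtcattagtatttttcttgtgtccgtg
BHLH101: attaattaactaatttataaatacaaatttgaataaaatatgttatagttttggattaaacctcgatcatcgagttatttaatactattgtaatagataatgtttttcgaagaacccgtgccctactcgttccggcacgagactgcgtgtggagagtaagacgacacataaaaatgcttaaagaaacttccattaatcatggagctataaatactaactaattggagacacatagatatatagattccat
A G-box stood in the windows of BHLH38 and BHLH100, and none of these letters in those of BHLH39 and BHLH101. In windows from 250 bases before to 50 bases after the start, a G-box was found in 13.9% of the 582 genes that rose, 9.87% of the 618 that fell and 8.63% of 20708 genes tested. The W-box was found in 33.2%, 28.3% and 33.1% of the same sets. These shares are descriptions of the letters and were not tested.

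Further members of the list followed. The loci AT1G47395, AT1G47400 and AT2G30766, which RefSeq lists as uncharacterized proteins, rose by 2.32 ± 0.25, 1.95 ± 0.23 and 1.03 ± 0.13. AT1G47395 had 21.1, 15.9 and 27 CPM in the med8 libraries, against 2.93, 4.75 and 5.05 CPM in the Col-0 libraries. The ubiquitin ligase gene BTS, a brake on the response, had 249, 242 and 239 CPM in the med8 libraries, against 137, 160.4 and 179.7 CPM in the Col-0 libraries (0.61 ± 0.11, adjusted p = 0.00822). PYE, a bHLH repressor of iron genes, rose by 0.45 ± 0.08. Genes of iron and metal movement rose as well, the phloem transporter gene OPT3 by 0.63 ± 0.12, the vacuolar exporter gene NRAMP4 by 0.52 ± 0.10 and the vacuolar transporter gene ZIF1 by 0.65 ± 0.10. ORG1, outside the list and among the 5 smallest p of rises with a symbol, had 338, 344 and 312 CPM in the med8 libraries, against 144, 171 and 192 CPM in the Col-0 libraries (0.97 ± 0.11, adjusted p = 0.00145).

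The root uptake genes of the same list did not pass, and they are named after their values were seen. FIT, listed in RefSeq as FRU, had 5.3, 6.21 and 2.53 CPM in the med8 libraries, against 8.66, 7.88 and 10.3 CPM in the Col-0 libraries (−0.93 ± 0.25, adjusted p = 0.0509), and med8 was the lower group in every library. The iron transporter gene IRT1 had 49, 86.5 and 19.7 CPM in the med8 libraries, against 43.5, 44.5 and 58.4 CPM in the Col-0 libraries (0.09 ± 0.37, adjusted p = 0.921). The ferric reductase gene FRO2 gave 0.15 ± 0.34, adjusted p = 0.836. IRT1 and FRO2 were each lowest in med8 replicate 3, the library with the lowest root markers, and the part of root content in these values was not tested. Of 9 iron storage genes tested 0 rose and 1 fell, against 2.98% falling over all genes. The gene that fell was VTL5, a vacuolar iron transporter-like gene (−0.82 ± 0.17, adjusted p = 0.0168). Its call was lost without Col-0 replicate 2 or med8 replicate 2 (adjusted p = 0.0632 and 0.0605).

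Several genes that promote flowering fell in med8. Of 12 tested 0 rose and 4 fell, against 2.98% falling over all genes, with a median of −0.45. Between 3 and 4 fell in the fits without a library, and 2 with only the 6 control libraries. FT, the mobile signal that induces flowering, had 0.0344, 0.169 and 0.107 CPM in the med8 libraries, against 1.79, 1.39 and 1.01 CPM in the Col-0 libraries (−3.70 ± 0.50, adjusted p = 0.00322). SEP3, a MADS-box gene of floral organs, had 0.826, 0.371 and 0.855 CPM in the med8 libraries, against 4.49, 7.98 and 6.57 CPM in the Col-0 libraries (−3.21 ± 0.33, adjusted p = 0.000847). Each med8 library of both genes was below all Col-0 libraries, and both calls held in all 14 alternatives. SPL5, a target of the age pathway, fell, changing by −1.63 ± 0.26 and the MADS-box gene FUL by −1.38 ± 0.33. FUL lost its call without Col-0 replicate 1 or 3 or med8 replicate 1 or 2 (adjusted p between 0.0704 and 0.0975). CO, the activator of FT, gave −1.24 ± 0.36, adjusted p = 0.0691 and SOC1 −0.45 ± 0.13, adjusted p = 0.0666; both were lower in all med8 libraries without passing, and are named after their values were seen.

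Repressors of flowering moved in both directions, with 3 of 14 rising and 2 falling and a median of 0.03. Over all genes tested 2.81% rose and 2.98% fell. In the fits without a library between 0 and 3 rose and 1 or 2 fell. FLC, the MADS-box repressor of FT, had 2.2, 2.53 and 2.71 CPM in the med8 libraries, against 1.24, 0.323 and 0.757 CPM in the Col-0 libraries (1.68 ± 0.36, adjusted p = 0.0207). All med8 libraries were above Col-0, and the call was lost without Col-0 replicate 3 (1.67, adjusted p = 0.0818) and without med8 replicate 2 (1.66, adjusted p = 0.0548). The AP2-like repressors TOE1 and TOE2 rose by 0.26 ± 0.06 and 0.28 ± 0.07. TOE1 lost its call without Col-0 replicate 2 or 3 or med8 replicate 1 or 2 (adjusted p between 0.0584 and 0.0946), and TOE2 in each of the 6 fits without a library (adjusted p between 0.0505 and 0.11). AP2 fell (−0.73 ± 0.13, adjusted p = 0.0087), and that call was lost with only the 6 control libraries (adjusted p = 0.105). MAF5, a relative of FLC, fell too (−1.79 ± 0.40, adjusted p = 0.0238), and that call was lost without Col-0 replicate 3 or med8 replicate 2 or 3 (adjusted p between 0.05 and 0.0734), with a value of −1.14 without the Col-0 library.

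**Figure D3:**
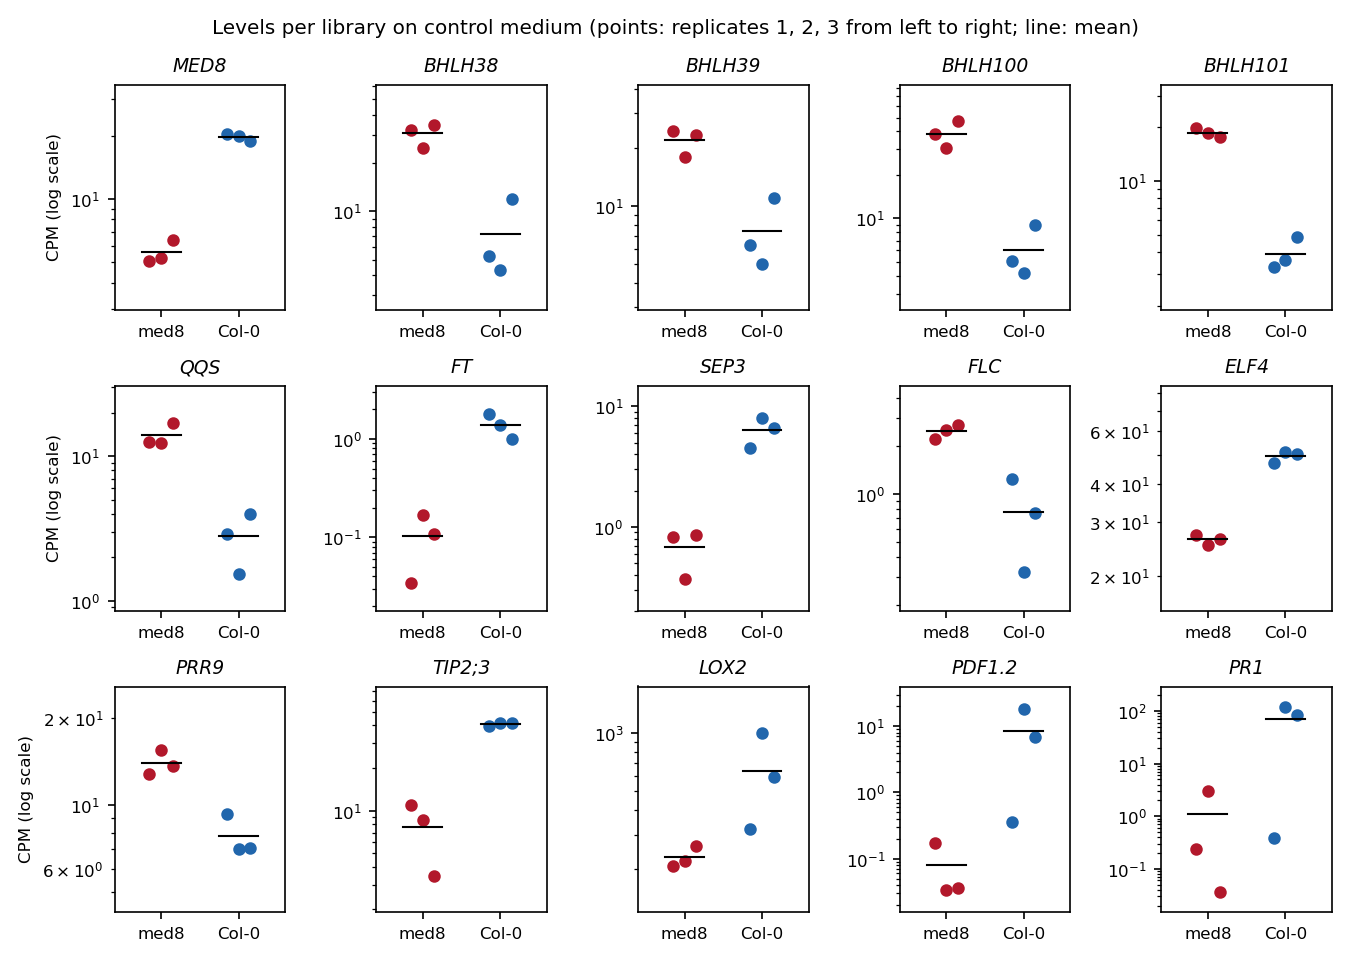
CPM per library (y axes, log scale) of 15 genes on control medium, med8 in red to the left of Col-0 in blue, with replicates 1 to 3 from left to right in each group and a line at the mean. MED8, FT, SEP3 and TIP2;3 lie lower in every med8 library, the 4 bHLH genes, QQS, FLC and PRR9 lie higher in every med8 library, and PR1 overlaps through Col-0 replicate 1.

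Of the clock genes that passed, the evening genes fell and the morning genes rose, except the morning gene RVE2, which fell. The circadian clock of Arabidopsis runs on morning genes such as CCA1 and evening genes such as TOC1 that repress each other, so levels at a single harvest depend on the hour, which the labels do not give. Of 9 evening genes 0 rose and 5 fell (median −0.42), and of 10 morning genes 4 rose and 1 fell (median 0.58), against 2.81% rising and 2.98% falling over all genes. In the fits without a library between 3 and 5 evening genes fell and between 3 and 5 morning genes rose. With only the 6 control libraries 3 evening genes fell and 0 morning genes rose, PRR9, LNK2, RVE4 and LNK1 losing their calls (adjusted p between 0.0504 and 0.0614). In all 19 the med8 and Col-0 libraries did not overlap, which was so for 23.3% of all genes tested. The mean log2(CPM + 1) of the morning genes less that of the evening genes was −1.43, −1.30 and −1.21 in the med8 libraries, against −1.95, −2.21 and −2.09 in the Col-0 libraries.

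Among evening genes, ELF4, part of the evening complex, had 27.3, 25.2 and 26.4 CPM in the med8 libraries, against 47.1, 51.2 and 50.5 CPM in the Col-0 libraries (−0.91 ± 0.08, adjusted p = 0.000257). TOC1 had 97.8, 99.9 and 98.3 CPM in the med8 libraries, against 133, 141 and 134 CPM in the Col-0 libraries (−0.46 ± 0.08, adjusted p = 0.00658). The other called members were PRR3 (−0.64 ± 0.11), LUX (−0.42 ± 0.08) and its relative BOA (−0.70 ± 0.16). LUX lost its call without Col-0 replicate 3 (adjusted p = 0.0658), and BOA without Col-0 replicate 2 or 3 or med8 replicate 2 or 3 (adjusted p between 0.0503 and 0.11). Among morning genes, PRR9 had 12.7, 15.4 and 13.6 CPM in the med8 libraries, against 9.31, 7.04 and 7.07 CPM in the Col-0 libraries (0.84 ± 0.13, adjusted p = 0.00527), and LNK2, a coactivator, had 177, 181 and 199.9 CPM in the med8 libraries, against 131, 95.2 and 105 CPM in the Col-0 libraries (0.75 ± 0.12, adjusted p = 0.00695). RVE4 (0.57 ± 0.10) and LNK1 (0.50 ± 0.09) rose as well, RVE4 losing its call without Col-0 replicate 2 (adjusted p = 0.0507) and LNK1 without Col-0 replicate 3 (adjusted p = 0.0501). RVE2 went against its list, with 3.17, 3.51 and 3.42 CPM in the med8 libraries, against 7.13, 7.59 and 7.7 CPM in the Col-0 libraries (−1.15 ± 0.11, adjusted p = 0.0006). The central pair CCA1 (0.49 ± 0.17, adjusted p = 0.119) and LHY (0.65 ± 0.19, adjusted p = 0.0698), named after their values were seen, were higher in every med8 library and did not pass.

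The evening element AAAATATCT, the site through which morning factors act on evening genes, was found in the same windows of 3.78% of genes that rose, 5.83% of genes that fell and 3.02% of all genes tested. The promoters of the called evening genes TOC1 (chr5:24674713-24674962, plus strand), LUX (chr3:17182792-17183041, plus strand) and BOA (chr5:24003638-24003887, plus strand) show it in capitals on either strand, together with any G-box.
TOC1: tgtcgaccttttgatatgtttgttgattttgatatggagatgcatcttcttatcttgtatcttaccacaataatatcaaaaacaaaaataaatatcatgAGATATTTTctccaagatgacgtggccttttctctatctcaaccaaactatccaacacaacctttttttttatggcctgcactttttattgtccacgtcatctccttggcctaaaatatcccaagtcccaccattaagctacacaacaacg
LUX: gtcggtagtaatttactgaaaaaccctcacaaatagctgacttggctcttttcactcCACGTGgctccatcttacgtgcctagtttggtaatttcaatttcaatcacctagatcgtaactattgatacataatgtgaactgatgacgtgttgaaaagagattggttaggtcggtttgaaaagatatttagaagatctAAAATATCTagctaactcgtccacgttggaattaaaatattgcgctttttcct
BOA: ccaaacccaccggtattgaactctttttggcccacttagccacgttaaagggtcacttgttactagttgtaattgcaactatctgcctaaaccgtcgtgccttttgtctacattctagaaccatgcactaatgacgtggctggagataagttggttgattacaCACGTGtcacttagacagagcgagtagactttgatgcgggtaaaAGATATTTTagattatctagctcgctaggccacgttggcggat
Each of the 3 windows holds 1 evening element, and LUX and BOA a G-box beside it. ELF4 and PRR3, which fell further than LUX, had no exact match in their windows. The evening genes PRR5 and FKF1, which did not pass, each held 1 evening element as well. PRR9, which rose, held the element in the window that ran to 50 bases after the start.

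Some jasmonate genes fell in med8, among them VSP1, VSP2 and LOX2. Some defence genes of the ethylene and jasmonate (ERF) branch, a separate list, fell as well. Several had a large spread in Col-0. Of 27 jasmonate genes 0 rose and 3 fell (median −0.35), and of 6 tested genes of the ERF branch 0 rose and 3 fell (median −1.25), against 2.98% falling over all genes. Without Col-0 replicate 1, 10 jasmonate genes fell, in a fit that called 1625 of all genes against 1200 with all libraries. Without each of the other libraries 2 jasmonate genes fell. Of the ERF genes between 0 and 4 fell in the fits without a library. VSP1 and VSP2 encode vegetative storage proteins that accumulate under jasmonate. VSP1 had 15.1, 13.9 and 12.5 CPM in the med8 libraries, against 37, 39.5 and 37.5 CPM in the Col-0 libraries (−1.45 ± 0.24, adjusted p = 0.00748), and VSP2 had 42.2, 56.4 and 45.5 CPM in the med8 libraries, against 90, 106 and 99.2 CPM in the Col-0 libraries (−1.04 ± 0.19, adjusted p = 0.0122). The Col-0 libraries were close to each other for both genes and above all med8 libraries. Both calls held without each single library and were lost with both libraries that stood apart left out (−1.39, adjusted p = 0.0545, and −1.04, adjusted p = 0.0552). LOX2, the plastid lipoxygenase gene of jasmonate synthesis, had 208, 219.5 and 262 CPM in the med8 libraries, against 319.6, 997 and 596 CPM in the Col-0 libraries (−1.47 ± 0.31, adjusted p = 0.0216). Its call was lost without Col-0 replicate 2 or 3 or med8 replicate 1, 2 or 3 (adjusted p between 0.0503 and 0.0762), and its value was −0.99 without Col-0 replicate 2.

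PDF1.2, a defensin gene used as a marker of the ERF branch, had 0.172, 0.0338 and 0.0356 CPM in the med8 libraries, against 0.358, 18.1 and 6.91 CPM in the Col-0 libraries (−6.65 ± 1.33, adjusted p = 0.0168). Only 1 to 5 counts per med8 library lay behind this value, and Col-0 replicate 1 was far below the other Col-0 libraries. The call was lost without med8 replicate 2 or 3 (adjusted p = 0.0712 and 0.092). PDF1.3 (−4.36 ± 1.02, adjusted p = 0.031) and HEL, the PR4 gene (−1.29 ± 0.31, adjusted p = 0.0369), also fell. PDF1.3 lost its call without Col-0 replicate 2 or 3 or med8 replicate 2 or 3 (adjusted p between 0.0859 and 0.122), and HEL without Col-0 replicate 2 or 3 or med8 replicate 1, 2 or 3 (adjusted p between 0.0504 and 0.134). The defensin genes are near-identical to each other in part, so their counts may share reads. Without both libraries that stood apart 8 of the 27 jasmonate genes fell, where 4.45% of all genes rose and 4.40% fell.

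Genes of salicylic acid signalling varied widely between libraries of one group. Of 25 tested 0 rose and 1 fell, against 2.81% rising and 2.98% falling over all genes, and the median was −0.56. The med8 and Col-0 libraries overlapped in all 25, where 23.3% of all genes tested had no overlap. In the fits without a library up to 1 rose and up to 4 fell. PR1 had 0.241, 3.07 and 0.0356 CPM in the med8 libraries, against 0.391, 121 and 84.8 CPM in the Col-0 libraries (−5.92 ± 1.52, adjusted p = 0.0447), and Col-0 replicate 1 lay among the med8 values. The call was lost without Col-0 replicate 2 or 3 or med8 replicate 1, 2 or 3 (adjusted p between 0.078 and 0.175). The 14 receptor-like kinases of the CRK family had a median of −1.38 with 0 called, and the same 2 libraries were the lowest in both groups. In the fits without a library, which called between 402 and 1625 of all genes, between 0 and 7 of the 14 fell. ACD6, an ankyrin protein gene that promotes salicylic acid defence, had 19.8, 22.2 and 18.6 CPM in the med8 libraries, against 31.9, 162 and 84.2 CPM in the Col-0 libraries (−2.20 ± 0.46, adjusted p = 0.0209), and its call was lost without Col-0 replicate 2 or 3 or med8 replicate 1, 2 or 3 (adjusted p between 0.0556 and 0.103). PCC1, a pathogen-responsive gene under clock control, had 26.7, 39.1 and 36.6 CPM in the med8 libraries, against 72.5, 184 and 144 CPM in the Col-0 libraries (−1.97 ± 0.38, adjusted p = 0.0148), and its call was lost without Col-0 replicate 2 or 3 or med8 replicate 1 or 3 (adjusted p between 0.0522 and 0.068).

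Some root genes fell, TIP2;3 furthest. TIP2;3, a tonoplast aquaporin gene of roots, had 10.9, 8.64 and 3.46 CPM in the med8 libraries, against 39.8, 41.6 and 41.4 CPM in the Col-0 libraries (−2.42 ± 0.38, adjusted p = 0.0057). Col-0 was nearly constant, every med8 library was lower, and the call held in all 14 alternatives. Of the 22 root markers 0 rose and 4 fell, TIP2;3, PHO1 (−0.46 ± 0.10), CASP5 (−1.59 ± 0.38) and the triterpene gene THAH (−1.39 ± 0.35), and the list's median was −0.15. Over all genes tested 2.81% rose and 2.98% fell. PHO1 lost its call without Col-0 replicate 2 or 3 (adjusted p = 0.0715 and 0.069), CASP5 without Col-0 replicate 2 or 3 or med8 replicate 2 or 3 (adjusted p between 0.0586 and 0.1) and THAH in each of the 6 fits without a library (adjusted p between 0.0508 and 0.157). With both libraries that stood apart left out 1 of the 22 fell, against 4.40% of all genes, and the list's median was 0.01. In whole seedlings, fewer cells of a type and less RNA per cell cannot be told apart. ANNAT7, an annexin gene, had 1.03, 0.675 and 0.285 CPM in the med8 libraries, against 3.35, 3.39 and 3.76 CPM in the Col-0 libraries (−2.39 ± 0.46, adjusted p = 0.013), and its lowest library was med8 replicate 3, which also had the lowest root markers; the part of root content was not tested.

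The nitrogen and phosphate genes that passed, 3 in each list, all fell, where 2.98% of all genes tested fell and 2.81% rose. Of 24 nitrogen genes 0 rose and 3 fell: the nitrate transporter gene NRT1.1 had 97, 84.6 and 59.1 CPM in the med8 libraries, against 155, 136 and 165 CPM in the Col-0 libraries (−0.92 ± 0.16, adjusted p = 0.00791), the glutamate synthase gene GLT1 changed by −0.40 ± 0.07 and the nitrate reductase gene NIA2 by −0.32 ± 0.07. NIA2 lost its call without Col-0 replicate 2 or 3 or med8 replicate 1 or 2 (adjusted p between 0.0617 and 0.103). Of 21 phosphate genes 0 rose and 3 fell, among them the transporter gene PHT1;4 with 9.09, 7.12 and 6.45 CPM in the med8 libraries, against 11.8, 13 and 17.2 CPM in the Col-0 libraries (−0.89 ± 0.15, adjusted p = 0.00769). MGDC (−0.88 ± 0.21) and RNS1 (−3.82 ± 0.97) were the others. MGDC lost its call without Col-0 replicate 2 or 3 or med8 replicate 2 or 3 (adjusted p between 0.0584 and 0.134). RNS1 lost it without Col-0 replicate 2 or 3 or med8 replicate 1, 2 or 3 (adjusted p between 0.0689 and 0.137), with a value of −2.21 without Col-0 replicate 2. With both libraries that stood apart left out, 7 phosphate genes fell and 1 rose, against 4.40% falling and 4.45% rising over all genes. In the fits without a library between 1 and 5 phosphate genes fell.

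Some genes of oxidative stress lists passed on this medium without methyl viologen, where 2.81% of all genes tested rose and 2.98% fell. Of 19 genes of the mitochondrial dysfunction response 4 rose and 0 fell (median 0.32). Between 1 and 4 rose in the fits without a library. With both libraries that stood apart left out 2 rose and 1 fell, where 4.45% of all genes rose and 4.40% fell. The MATE transporter gene AT2G04050 had 5.54, 3.78 and 3.95 CPM in the med8 libraries, against 0.749, 1.13 and 0.915 CPM in the Col-0 libraries (2.24 ± 0.31, adjusted p = 0.00406), and it may share reads with its neighbour AT2G04070 (1.73 ± 0.43, adjusted p = 0.0386). The glucosyltransferase gene UGT74E2 (0.96 ± 0.22) and the sulfotransferase gene SOT12 (0.77 ± 0.20) also rose. AT2G04050 held its call in every fit without a library. AT2G04070 lost it without Col-0 replicate 1 or 3 or med8 replicate 1, 2 or 3 (adjusted p between 0.0797 and 0.133), UGT74E2 without Col-0 replicate 1 or 3 or med8 replicate 1 or 2 (adjusted p between 0.0639 and 0.108) and SOT12 without Col-0 replicate 1, 2 or 3 or med8 replicate 1 or 2 (adjusted p between 0.0625 and 0.126). Of 30 antioxidant genes 3 rose and 0 fell (median −0.02). With both libraries that stood apart left out 5 rose and 3 fell. Without Col-0 replicate 1, where 1625 of all genes were called, there were 4 rises and 4 falls. Without Col-0 replicate 2 or 3 or med8 replicate 2 none rose or fell. Catalase 2 (AT4G35090) had 528, 612 and 604 CPM in the med8 libraries, against 443, 388 and 356 CPM in the Col-0 libraries (0.56 ± 0.12, adjusted p = 0.0237), the ascorbate synthesis gene VTC2 gave 0.33 ± 0.07 and the glutathione reductase gene GR 0.37 ± 0.09. Catalase 2 lost its call without Col-0 replicate 2 or 3 or med8 replicate 2 (adjusted p between 0.075 and 0.1), VTC2 without Col-0 replicate 2 or 3 or med8 replicate 1 or 2 (adjusted p between 0.0584 and 0.0989) and GR without Col-0 replicate 2 or 3 or med8 replicate 2 or 3 (adjusted p between 0.0718 and 0.148). Of 5 hallmark genes of reactive oxygen 1 fell, the trypsin inhibitor gene TI1 (−1.34 ± 0.24, adjusted p = 0.0103). The other 4 did not pass, with AT2G21640 at 0.46 ± 0.17, AT1G19020 at −0.30 ± 0.33, AT1G05340 at −0.54 ± 0.29 and AT1G57630 at −1.20 ± 0.79.

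Photosynthesis genes gave no call, where 5.79% of all genes tested were called. None of the 52 rose or fell, their median was 0.07, and the 2 most expressed, CAB1 (0.23 ± 0.12, adjusted p = 0.289) and LHB1B2 (0.14 ± 0.13, adjusted p = 0.562), overlapped between the groups. Without single libraries between 0 and 4 rose.

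Hormone, light and sugar lists held a few called members each, where 2.81% of all genes tested rose and 2.98% fell. IAA14, an auxin repressor gene that acts in lateral root formation, had 33.6, 34.4 and 29.8 CPM in the med8 libraries, against 17.4, 15.5 and 17.2 CPM in the Col-0 libraries (0.96 ± 0.12, adjusted p = 0.00168), while IAA5 fell (−1.20 ± 0.23, adjusted p = 0.0122). Of 16 auxin genes 2 rose and 2 fell, while between 1 and 5 rose and up to 3 fell in the fits without a library. CYP707A1, the gene of abscisic acid breakdown, had 3.34, 3.81 and 2.71 CPM in the med8 libraries, against 6.67, 6.69 and 7.64 CPM in the Col-0 libraries (−1.09 ± 0.17, adjusted p = 0.00548), the only fall among 27 genes of dehydration and abscisic acid, where HAB1 was the only rise (0.42 ± 0.10). QQS, an orphan gene that affects starch, had 12.5, 12.3 and 17.1 CPM in the med8 libraries, against 2.9, 1.52 and 4.01 CPM in the Col-0 libraries (2.31 ± 0.28, adjusted p = 0.00192). With TPS11 (0.58 ± 0.14) and SAG29 (1.30 ± 0.31) it made 3 rises and 0 falls among 20 genes of sugar starvation. The cold regulators CBF2 (1.51 ± 0.18, adjusted p = 0.00182), DREB1A (0.89 ± 0.18) and CBF1 (1.16 ± 0.27) were the 3 rises among 21 genes of touch and handling, whose median was −0.12. EBF2, an F-box gene that turns over the ethylene factor EIN3, was the only fall of 13 ethylene genes (−0.51 ± 0.08, adjusted p = 0.00554). Of the shade and light list, PIF5 rose (0.31 ± 0.06) and HY5 (−0.51 ± 0.11) and PAR1 (−0.71 ± 0.16) fell among 13. IAA14, CYP707A1, QQS, CBF2 and EBF2 kept their calls in all fits without a library, and all others named here lost them in at least 1. IAA5 lost it without Col-0 replicate 3 (adjusted p = 0.0503), HAB1 without Col-0 replicate 2 or 3 or med8 replicate 2 (adjusted p between 0.0797 and 0.108) and TPS11 without Col-0 replicate 1, 2 or 3 or med8 replicate 1 or 2 (adjusted p between 0.0547 and 0.114). SAG29 lost it without Col-0 replicate 2 or 3 or med8 replicate 2 or 3 (adjusted p between 0.0617 and 0.127), DREB1A without Col-0 replicate 2 or 3 or med8 replicate 2 (adjusted p between 0.0609 and 0.0787) and CBF1 without Col-0 replicate 2 or 3 or med8 replicate 2 (adjusted p between 0.0688 and 0.109). PIF5 lost it without Col-0 replicate 2 or 3 (adjusted p = 0.0566 and 0.0594), HY5 without Col-0 replicate 2 or 3 or med8 replicate 2 (adjusted p between 0.0568 and 0.0615) and PAR1 without Col-0 replicate 1, 2 or 3 or med8 replicate 1 or 2 (adjusted p between 0.0556 and 0.0909).

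The remaining lists had few members called, where 2.81% of all genes tested rose and 2.98% fell. Of 20 anthocyanin and flavonoid genes 2 fell, the regulator gene MYB12 (−0.92 ± 0.17) and the flavonol synthase gene FLS1 (−0.58 ± 0.12). Of 35 detoxification genes 1 rose, GSTU25 (1.20 ± 0.23), and 2 fell, GSTU2 (−1.01 ± 0.23) and GSTU6 (−0.90 ± 0.23); these transferases are close relatives and may share reads. GSTU25 lost its call without Col-0 replicate 2 or 3 or med8 replicate 2 (adjusted p between 0.0554 and 0.0644), GSTU2 without Col-0 replicate 2 or 3 (adjusted p = 0.0899 and 0.0746) and GSTU6 without Col-0 replicate 2 or 3 or med8 replicate 1 or 2 (adjusted p between 0.0795 and 0.123). MYB12 lost it without Col-0 replicate 2 (adjusted p = 0.0502) and FLS1 without Col-0 replicate 3 (adjusted p = 0.076). Of 31 glucosinolate and camalexin genes 1 rose, CYP71A13 (0.97 ± 0.23), and of 14 class III peroxidases 1 rose, AT1G14550 (1.82 ± 0.42). Without Col-0 replicate 1, where 1625 of all genes were called, 3 of these peroxidases fell. With both libraries that stood apart left out 1 of them rose and 4 fell. Of the glucosinolate genes 1 rose and 3 fell, and of the detoxification genes 2 rose and 5 fell, with both left out. In that fit 4.45% of all genes rose and 4.40% fell. CYP71A13 lost its call without Col-0 replicate 3 or med8 replicate 2 or 3 (adjusted p between 0.0692 and 0.122) and AT1G14550 without Col-0 replicate 1 or 2 or med8 replicate 1 or 2 (adjusted p between 0.0625 and 0.116). Heat shock (15 genes), expansin (17), root hair (21), senescence (10) and cell division (20) lists had no member called in the fit of all libraries, with medians of −0.26, −0.03, −0.35, −0.30 and 0.17. Between them the most expressed members were HSP70, EXPA1, AT3G01190, NYC1 and TSO2, at −0.04 ± 0.13, 0.22 ± 0.10, −0.48 ± 0.25, −0.63 ± 0.35 and 0.42 ± 0.12. NYC1 was lower in every med8 library, and it was called with only the 6 control libraries (adjusted p = 0.0367). Its Col-0 libraries on methyl viologen, which enter the shared estimate of spread, ran from 12.25 to 49.7 CPM.

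**Figure D4:**
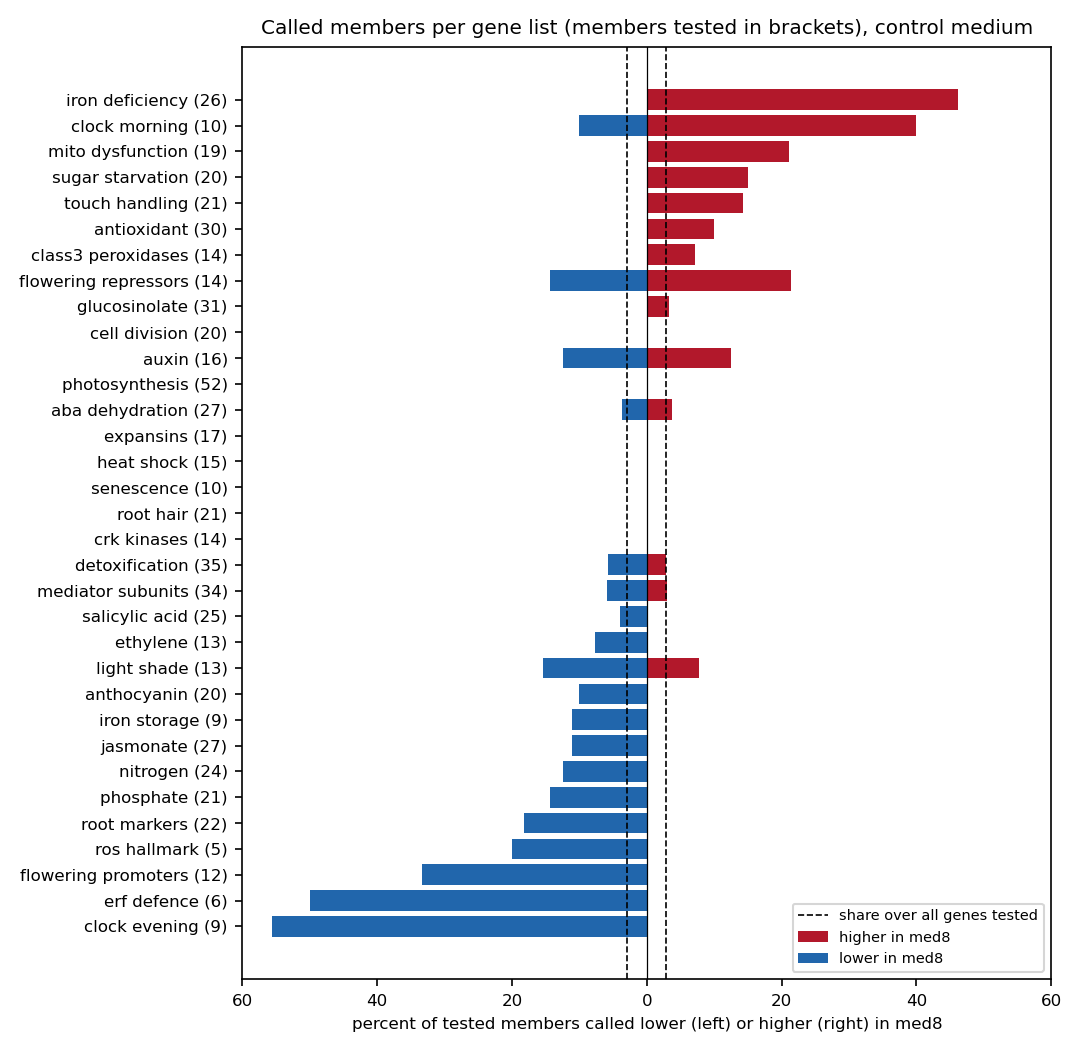
Percent of the tested members of each gene list (rows, number tested in brackets) that were called higher (red, right) or lower (blue, left) in med8 than in Col-0 on control medium. Dashed lines mark the shares over all genes tested, 2.81% higher and 2.98% lower; iron deficiency genes reach furthest to the right and evening clock genes furthest to the left.

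Genes with a symbol and the smallest p-values came from several functions. NRPB1, the largest subunit of RNA polymerase II, had 229.6, 236 and 252 CPM in the med8 libraries, against 168, 158 and 154 CPM in the Col-0 libraries (0.58 ± 0.06, adjusted p = 0.000995). INO80, a chromatin remodelling helicase gene, had 129.5, 133 and 136 CPM in the med8 libraries, against 96.8, 85.8 and 82.3 CPM in the Col-0 libraries (0.59 ± 0.07, adjusted p = 0.00119). GTE7, a bromodomain factor gene, had 38.6, 38.9 and 46 CPM in the med8 libraries, against 83.7, 89.2 and 88 CPM in the Col-0 libraries (−1.08 ± 0.10, adjusted p = 0.000298). The arabinogalactan gene AGP7 changed by −1.06 ± 0.08 and ERD3, a methyltransferase gene first known from dehydration, by −1.04 ± 0.08. The groups did not overlap in any of the 5, and all held in the 14 alternatives. The rule for large changes also named the MADS-box gene PHE1 (1.79 ± 0.25, adjusted p = 0.00406), the homeodomain gene ASG4 (1.98 ± 0.26, adjusted p = 0.00303) and the P450 gene CYP76C4 (2.18 ± 0.50) among rises. CYP76C4 lost its call without Col-0 replicate 2 or 3 or med8 replicate 1 or 2 (adjusted p between 0.0688 and 0.0871). PUB19 (1.43 ± 0.37) and LBD26 (1.37 ± 0.36) were the smallest of these rises. PUB19 lost its call without Col-0 replicate 1, 2 or 3 or med8 replicate 2 or 3 (adjusted p between 0.0678 and 0.134) and LBD26 without Col-0 replicate 1, 2 or 3 or med8 replicate 1 or 2 (adjusted p between 0.0855 and 0.171). Among falls it named PDF1.4 (−2.56 ± 0.46, adjusted p = 0.00957), the amino acid transporter family gene UMAMIT29 (−1.95 ± 0.30, adjusted p = 0.00528), the glucosidase gene BGLU45 (−1.97 ± 0.38), the P450 gene CYP71A27 (−1.94 ± 0.39) and the myrosinase-binding protein gene MBP1 (−2.11 ± 0.45). BGLU45 lost its call without Col-0 replicate 2 (adjusted p = 0.0548), CYP71A27 without med8 replicate 2 (adjusted p = 0.0568) and MBP1 without Col-0 replicate 2 or 3 or med8 replicate 1, 2 or 3 (adjusted p between 0.0621 and 0.115).

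Called genes lay on all chromosomes. They made 6.86% of those tested on chromosome 2, where MED8 lies, and between 5.50% and 5.78% on the other chromosomes. Among the 20 tested genes on either side of MED8, 4 of 40 were called and all 4 fell: ARPN (−1.25 ± 0.18), RNS1, AT2G03240 (−0.35 ± 0.06) and AT2G03370 (−1.95 ± 0.44). Over all genes tested 5.79% were called and 2.98% fell. RNS1 lost its call without Col-0 replicate 2 or 3 or med8 replicate 1, 2 or 3. On methyl viologen ARPN was at 0.01 and RNS1 at −1.62 (adjusted p = 0.97 and 0.218). There AT2G03240 was at −0.58 and AT2G03370 at −1.48 (adjusted p = 4.76e-05 and 0.0177).

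The same genotype comparison in the 6 methyl viologen libraries shares no library with this one. There 10.8% of genes rose and 12.9% fell in med8 against Col-0, and the difference between the genotype effects on the 2 media was called for 6.25% of genes upward and 7.66% downward. Of the 1200 genes called on control medium 715 (59.6%) had the same sign on methyl viologen, against 54.4% of all genes tested. On both media 379 were called in the same direction and 252 in opposite directions.

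FT, SEP3 and several others gave differences of the same sign on both media. FT was −4.51 and SEP3 −3.96 on methyl viologen (adjusted p = 4.39e-05 and 4.04e-05), FLC was 1.44 and QQS 2.25. VSP1, at −1.50, and AGP7, at −0.87, were also called in the same direction. The interaction did not pass for any of these 6, which does not show the effects to be equal.

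Iron genes differed in direction between the media. On methyl viologen 14 of the 26 tested fell and 7 rose in med8 against Col-0, and the list's median was −1.21. The interaction was negative and called in 14 and positive and called in 5. On that medium BHLH101 stood at 10, 12.2 and 10.4 CPM in med8 and 54.2, 49.1 and 38 CPM in Col-0 (−2.11 ± 0.15, adjusted p = 3.67e-06). All 12 iron genes that rose on control medium were lower in med8 on methyl viologen. Among clock genes the interaction was called and positive in all 9 evening genes, and called and negative in 8 of the 10 morning genes. ELF4, for example, was −0.09 on methyl viologen with an interaction of 0.83 ± 0.11, adjusted p = 0.000534. Of 25 salicylic acid genes 15 rose in med8 on methyl viologen and 0 fell, and of 21 touch genes 20 rose.

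**Figure D5:**
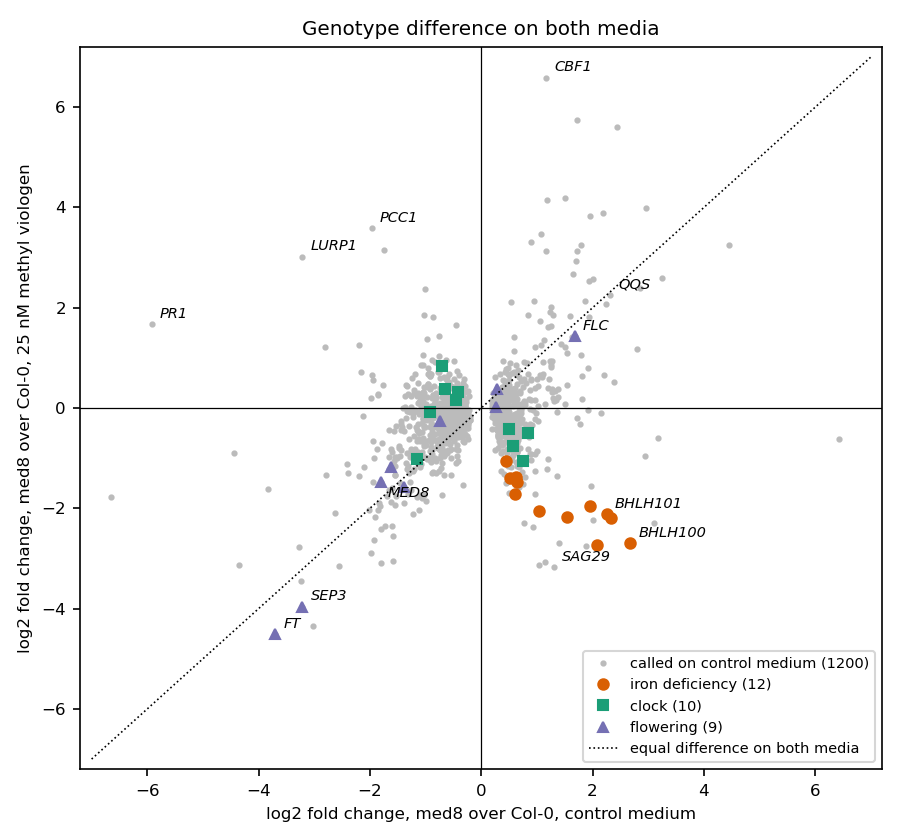
Log2 fold change of med8 over Col-0 on 25 nM methyl viologen (y axis) against the same on control medium (x axis) for the 1200 genes called on control medium. The 12 called iron deficiency genes (orange) lie right of and below 0, the flowering genes FT, SEP3 and FLC lie near the dotted line of equal difference, and PR1, LURP1 and PCC1 lie left of and above 0.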

How the data were processed

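RNA was taken from whole seedlings of 2 genotypes on 2 media, 3 libraries per group. The authors deposited raw counts per locus; per the submitters' processing notes, reads were trimmed with Trim Galore 0.3.3, aligned to TAIR10 with TopHat2 2.1.0 and counted with featureCounts of Subread 1.4.6. Which strand setting featureCounts used is not given in the sources used here, so counts of overlapping and antisense genes are uncertain, as are those of near-identical paralogs. Each locus in the table had at least 5 counts in at least 3 libraries.

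Counts were fitted over all 12 libraries in edgeR 4.0.16 (R 4.3.3) with TMM scaling, 1 mean per group and a robust quasi-likelihood model, after filterByExpr (minimum count 10, minimum total 15) removed 802 loci. The biological coefficient of variation was 12.7%. Symbols, gene positions and promoters came from RefSeq TAIR10.1, which matched 21519 of 21543 loci. CPM divide a count by the TMM-scaled library size. The script was tested on simulated counts.

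Members, lists and tests were chosen with earlier results of these data known. Lists are described by counts and medians, beside those over all genes, with no test of the list. Named genes were MED8; the 12 largest rises and 12 largest falls in fold among called genes that had a symbol, averaged 1 CPM or more in the higher group and did not overlap; the 5 smallest p-values per direction among genes with a symbol; the 3 called members with the smallest p of each list, or its 2 most expressed members; the hallmark genes; and the 4 largest interactions of each sign. Other genes named, further list members included, were chosen after their values were seen. The fit was repeated with upper-quartile or RLE scaling, without the filter, with a minimum of 1 CPM in 3 libraries, with DESeq2 1.42.0, with a replicate block, with only the 6 control libraries, without each control library and without both libraries that stood apart. The replicate number was no block in the reported fit, since the labels do not say what it marks.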

Additional observations from a re-analysis of the deposited data

Results flagged for a closer look

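For 8 genes called on control medium, the genotype difference was far from that on methyl viologen by the interaction test of the same fit. The values are the difference on methyl viologen less that on control medium, on the log2 scale. BHLH100 gave −5.37 ± 0.39, adjusted p = 2.01e-05, BHLH38 −4.82 ± 0.44, adjusted p = 6.51e-05 and BHLH101 −4.37 ± 0.22, adjusted p = 1.54e-06: all 3 iron regulator genes were higher in med8 on control medium and lower in med8 on methyl viologen. SAG29, a sugar transporter gene first known from senescence, gave −4.47 ± 0.38, adjusted p = 3.36e-05, with 1.30 ± 0.31 on control medium and −3.17 ± 0.23, adjusted p = 4.04e-06 on methyl viologen.

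PR1 gave 7.59 ± 2.04, adjusted p = 0.03, with a spread over the Col-0 control libraries from 0.391 to 121 CPM. LURP1, a gene of pathogen defence, gave 6.24 ± 1.1, adjusted p = 0.0034, with −3.21 ± 0.79, adjusted p = 0.0373 on control medium and 3.02 ± 0.76, adjusted p = 0.0145 on methyl viologen. PCC1 gave 5.56 ± 0.56, adjusted p = 0.000109, and was lower in med8 on control medium and higher in med8 on methyl viologen (3.59 ± 0.41, adjusted p = 0.000127). CBF1 gave 5.43 ± 0.43, adjusted p = 2.64e-05 and was higher in med8 on both media (6.59 ± 0.31, adjusted p = 3.68e-07 on methyl viologen). LURP1 lost its call on control medium without Col-0 replicate 2 or 3 or med8 replicate 1, 2 or 3 (adjusted p between 0.0886 and 0.164).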

How the results depend on the processing

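The count of 1200 genes on control medium became 1976 with DESeq2, 1848 with both libraries that stood apart left out, 143 with only the 6 control libraries and 277 when at least a 2-fold change was required as well. It ran from 402 to 1625 over the fits without 1 library, and from 1190 to 1218 with other scalings and filters. With the replicate number as a replicate block it was 1002. The deviations of same-numbered med8 and Col-0 libraries from their group means gave r = −0.362, 0.272 and −0.489. Pairs with different numbers ran from −0.462 to 0.507. The highest was between med8 replicate 3 and Col-0 replicate 1, the libraries that stood apart. As each group mean rests on 3 libraries, these values cannot decide whether a shared number marks a shared plate or sowing. Of the 1200, 324 kept call and direction without each single library and 120 in all 14 alternatives. The cause of the spread in counts was not tested. The fit of the 6 control libraries has fewer samples and takes its spread from the control groups alone. Within groups, library pairs differed with a chi-square per degree of freedom of 6.328 to 37 on control medium and 5.837 to 20.82 on methyl viologen. The part of either in the lower count was not tested. MED8 held in all, between −1.77 and −1.93.

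For the 109 called genes named besides MED8, 1217 of 1524 repeats kept the call and 307 lost it with the same sign, 79 of them with only the 6 control libraries. Among those lost in that fit alone were AP2, SPL5, TI1, EBF2, NRT1.1, GLT1, ANNAT7, PHE1, ASG4, PDF1.4 and UMAMIT29 (adjusted p between 0.0506 and 0.105). Genes that had not passed changed sign, cause not tested: CRK10 to 0.02 with the replicate block and, without 1 library each, CRK10 between −0.24 and 0.22, HSP70 between −0.17 and 0.06, ACD1 between −0.19 and 0.01, CDC20.1 between −0.26 and 0.47, AT1G19020 between −0.62 and 0.05 and AT1G57630 between −1.71 and 0.32. The counts on methyl viologen and of the interaction stayed within 1.5 times of 4906 and 2885 in every alternative run. Low counts limit several falls. FT, PDF1.2, PDF1.3, SEP3, SPL5, RNS1, CASP5, IAA5 and BGLU45, among others, had at most 24 counts in a med8 library.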

Other observations

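Several loci without a symbol changed as much as the named ones, and they were chosen after their values were seen. AT1G52100, which RefSeq lists as a mannose-binding lectin superfamily protein, had 101, 93.5 and 57.5 CPM in the med8 libraries, against 10.4, 10.4 and 15.5 CPM in the Col-0 libraries (2.80 ± 0.21, adjusted p = 0.000123), and it was higher in med8 on methyl viologen as well (1.19 ± 0.20, adjusted p = 0.00142). AT2G29220, a lectin receptor kinase gene, had 19.1, 16.4 and 5.49 CPM in the med8 libraries, against 1.92, 0.808 and 1.58 CPM in the Col-0 libraries (3.25 ± 0.57, adjusted p = 0.00931), lowest within med8 in replicate 3. The defensin-like loci AT1G13608 and AT1G13609, with consecutive numbers, rose together. AT1G13609 had 33.8, 29.7 and 38.3 CPM in the med8 libraries, against 5.7, 8.5 and 11 CPM in the Col-0 libraries (2.01 ± 0.27, adjusted p = 0.00369), and AT1G13608 gave 3.10 ± 0.48, adjusted p = 0.00527 at lower counts. On methyl viologen both were lower in med8, at −2.23 ± 0.26, adjusted p = 0.000119 for AT1G13609 and −2.28 ± 0.30, adjusted p = 0.00029 for AT1G13608.

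Other defensin-like loci fell, as PDF1.2 did. AT3G59930 had 1.27, 0.574 and 0.178 CPM in the med8 libraries, against 3.58, 9.99 and 6.09 CPM in the Col-0 libraries (−3.27 ± 0.57, adjusted p = 0.00918), and AT5G33355 had 0.344, 0.236 and 0.0712 CPM in the med8 libraries, against 1.21, 3.17 and 1.93 CPM in the Col-0 libraries (−3.24 ± 0.53, adjusted p = 0.00683). In both the groups did not overlap and Col-0 replicate 1 was the lowest Col-0 library. These similar genes may share reads. AT3G22235, a cysteine-rich transmembrane module gene close to PCC1 by locus number, had 31.8, 40.7 and 30.9 CPM in the med8 libraries, against 60.1, 162 and 125 CPM in the Col-0 libraries (−1.75 ± 0.33, adjusted p = 0.0131) and was higher in med8 on methyl viologen (3.15 ± 0.35, adjusted p = 0.000102); its control call was lost without Col-0 replicate 3 or med8 replicate 3 (adjusted p = 0.0508 and 0.0702).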
